A study of Mus musculus with 12 samples.

Results

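The proteasome genes of ISOS-1 cells, a mouse angiosarcoma line, were followed across treatment with 2 histone deacetylase inhibitors, 1 BET bromodomain inhibitor and vehicle. Members were the gene symbols made of Psm, a letter from a to g and a number. The 3 interferon-inducible catalytic subunits (Psmb8, Psmb9 and Psmb10) and 4 pseudogenes were left out of the 55 matches. This left 48 genes of 55359 identifiers, and 46 of them were among the 12836 genes that reached 1 TPM in at least 3 libraries and were tested. The rule used names only, not measured values, but it was set with earlier results of these data known.

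Each group held 3 libraries. SAHA (vorinostat), an inhibitor of histone deacetylases, was given at 1 µM for 24 h. VPA (valproic acid), a short-chain fatty acid that inhibits the same enzymes, was given at 2 mM for 36 h, and JQ1, which displaces BET proteins from acetylated chromatin, at 1 µM for 36 h. The vehicle was DMSO, whose duration the labels do not give, so that drug and exposure time cannot be told apart against DMSO or between SAHA and the other drugs. All 4 groups share the same line, labelled wild type (WT). The labels do not tell whether the 3 replicates were grown apart, and the p-values describe variation between libraries that may be technical. Levels are in TPM, the share of each transcript in a library after division by its length, from sequencing of transcript 3′ ends, deposited by the authors. A 3′ tag library yields about 1 tag per transcript whatever its length, so levels of different genes are compared with caution.

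The proteasome degrades proteins tagged with ubiquitin. Its barrel-shaped 20S core holds outer rings of α subunits, which gate the channel, and inner rings of β subunits, of which a few cut peptide bonds. A 19S particle caps the core to form the 26S proteasome: its base contains a ring of ATPases that unfold substrates, and its lid removes ubiquitin. Dedicated chaperones build the rings, and other regulators can bind the core in place of the 19S particle. Because the subunits are needed in fixed proportion, their genes are usually expressed together, and when proteasome activity is low the transcription factor encoded by Nfe2l1 raises many of them.

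All 12 libraries had between 13735 and 14799 identifiers above 0 TPM. Correlations of log2(TPM + 1) ran between 0.934 and 0.947 within groups and between 0.886 and 0.945 across groups. Mitochondrially encoded genes took 14.3% to 15.3% of TPM in JQ1 libraries, against 11.02% to 12.4% in SAHA, VPA and DMSO libraries together. The labels call the cells endothelial. Of 9 endothelial markers, Cdh5, Erg and Vwf were at 0 in all 12 libraries. Emcn, Kdr, Pecam1, Tek and Tie1 reached at most 1.01 TPM in any library. Cd34 (51.8 to 204 TPM) made up nearly all of the list's sum. That sum ran from 186 to 205 TPM with SAHA, 119 to 152 TPM with VPA and 52.5 to 54.4 TPM with JQ1, against 94.0 to 109 TPM in DMSO libraries. Leukocyte markers summed to at most 2.21 TPM and epithelial markers to at most 0.12 TPM. For the mitochondrial share, counts without mitochondrially encoded genes and Rn18s are given below. The part of the other differences in the proteasome values was not tested.

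The 250 bases before the start of 4 members are shown, picked with their values known, because these genes carry the contrasts that follow. Psma1 and Psmb5 are core genes that fell with JQ1, Psmd12 is a lid gene that fell with it, and Psmd8 is a lid gene that rose with every drug. The windows come from RefSeq on GRCm38.p6, which is not the build of the submitters, and run 5′ to 3′ on the strand of the gene. They lie at chr7:114276117-114276366 (minus strand, Psma1), chr14:54617996-54618245 (minus strand, Psmb5), chr11:107479278-107479527 (plus strand, Psmd12) and chr7:29180674-29180923 (minus strand, Psmd8). Capitals mark CCAAT boxes (CCAAT, or ATTGG on the other strand) and cores of the antioxidant response element (TGACNNNGC, or its reverse complement).
Psma1: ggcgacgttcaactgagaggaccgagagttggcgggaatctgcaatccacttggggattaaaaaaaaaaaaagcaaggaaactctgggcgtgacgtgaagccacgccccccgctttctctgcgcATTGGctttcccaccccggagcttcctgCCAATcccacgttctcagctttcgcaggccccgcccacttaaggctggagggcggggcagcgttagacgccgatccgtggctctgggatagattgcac
Psmb5: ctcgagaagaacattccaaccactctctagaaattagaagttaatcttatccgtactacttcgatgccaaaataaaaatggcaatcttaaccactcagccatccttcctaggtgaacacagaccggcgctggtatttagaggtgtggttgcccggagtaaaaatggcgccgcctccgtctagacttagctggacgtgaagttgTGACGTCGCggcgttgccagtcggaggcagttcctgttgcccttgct
Psmd12: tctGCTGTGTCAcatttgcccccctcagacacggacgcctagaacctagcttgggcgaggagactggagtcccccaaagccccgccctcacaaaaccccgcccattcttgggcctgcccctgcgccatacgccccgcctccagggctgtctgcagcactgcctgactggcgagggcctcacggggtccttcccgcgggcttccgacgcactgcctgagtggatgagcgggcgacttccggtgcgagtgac
Psmd8: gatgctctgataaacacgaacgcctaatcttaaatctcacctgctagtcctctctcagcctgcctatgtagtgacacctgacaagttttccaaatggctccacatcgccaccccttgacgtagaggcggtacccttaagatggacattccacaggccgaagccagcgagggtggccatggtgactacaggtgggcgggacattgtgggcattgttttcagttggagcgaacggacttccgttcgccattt
A window was found for 40 of the 48 members, and for members with several windows the one with most matches was used. Searches covered both strands of 250 bases before and 50 after the start, and no match in the windows shown overlaps another. TGACNNNGC was in 6 of the 40 members (15.0%), against 14% of the 27025 genes with a window. The E-box CACGTG was in 4 (10.0%), against 8.09% of all genes. CCAAT was in 15 (37.5%), against 41.1% of all genes, in 11 of the 24 members with a window that fell with JQ1 (45.8%) and in 3 of the 15 tested members that did not fall (20%). For TGACNNNGC and CACGTG the split went the other way, with the smaller share among members that fell. TGACNNNGC was in 3 of these 24 members and in 3 of these 15. CACGTG was in 2 of the 24 and in 2 of the 15. These shares are descriptions without a test, and the 4 windows shown do not represent the members. Psma5, Psmc4 and Psmd1, among others, fell with JQ1 and hold none of these motifs. Psmc6, Psmd9 and Psme4 hold TGACNNNGC and were not called with JQ1 against DMSO.

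In DMSO libraries the summed TPM of the 48 genes was 9742 ± 143, close to 1% of total TPM (0.958% to 0.986%). Within each subcomplex the DMSO means differed widely on the TPM scale: the highest over the lowest was 11.9-fold in the α ring (Psma7 over Psma6), 18.0-fold in the β ring (Psmb4 over Psmb2), 14.4-fold in the base (Psmc1 over Psmc4) and 4.61-fold in the lid (Psmd11 over Psmd12). Those folds include the effect of dividing 3′ tags by length. Core and 19S genes were the more abundant, with medians of 233 and 157 TPM, against 35.2 TPM for assembly factors and 41.2 TPM for the regulators that bind the core. Psma8, an α subunit of the testis, was listed at 0 in every library, and Psmb11, a catalytic subunit of the thymus, stayed at or below 0.9 TPM. Psme2b, a near copy of Psme2 whose reads may be split with it, was at 0 in SAHA and DMSO libraries and reached at most 3.22 TPM in the others.

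**Figure D1:**
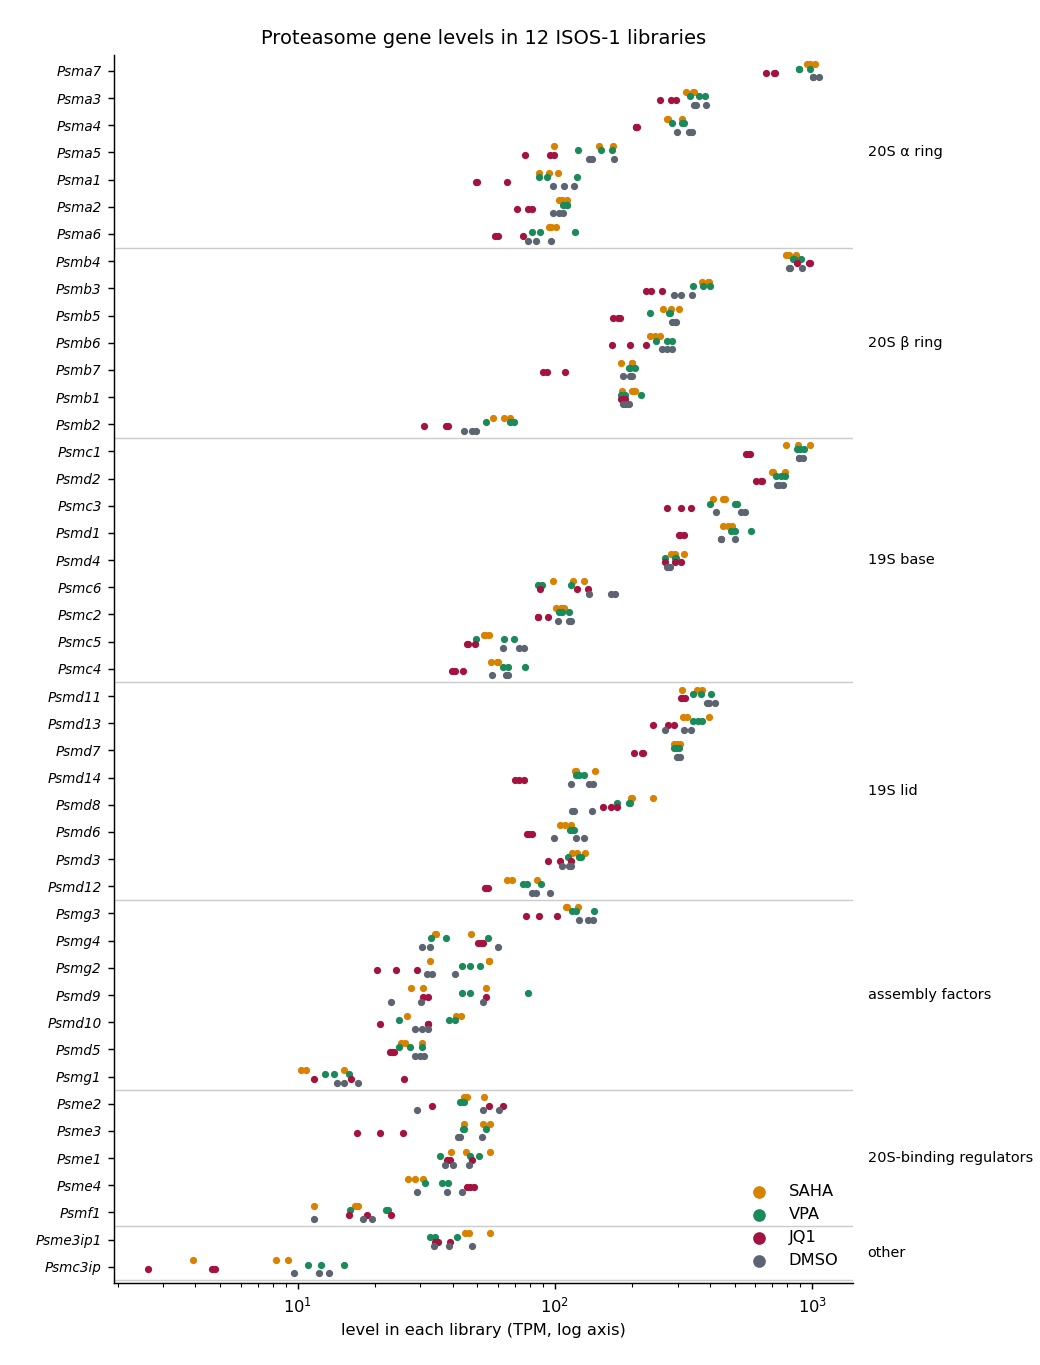
Level of each tested proteasome gene in TPM (log axis), 1 point per library, grouped by subcomplex and ordered by the DMSO mean. Psme2b, at 0 in 8 libraries, is not drawn. JQ1 points lie left of the DMSO points for most core and 19S genes, as for Psma7 and Psmb7.

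Proteasome transcripts were lower with JQ1. Their summed TPM was 7482, 7640.2 and 7355 in JQ1 libraries, against 9784, 9582 and 9858 in DMSO libraries, so the ratio of means was 0.769 and the libraries did not overlap. Of 46 tested members, 28 fell and 1 rose, where 21.0% of all tested genes fell and 12.9% rose. Among the 5720 tested genes with a mean of at least 10 TPM, a level that 44 of the 46 members also reached, 34.2% fell and 16.5% rose. The median log2 change of the members was −0.40 (−0.42 without Psme2b), beside −0.07 over all tested genes and −0.18 over those of at least 10 TPM. In bulk RNA a smaller number of expressing cells and less RNA per cell cannot be told apart. Scaling the libraries by the median of ratios gave 24 lower and 3 higher members and a median of −0.29, beside 17.9% of all tested genes lower, 16.0% higher and a median of 0.01, and a summed ratio of 0.833. Quantile normalization gave 17 lower and 4 higher, beside 17.1% of all tested genes lower and 16.1% higher, and leaving mitochondrially encoded genes and Rn18s out of the total gave 25 lower and 3 higher, beside 19.3% and 14.3%. The genes that joined Psmd8 as higher were Psmb4 and Psme4, and under quantile normalization also Psmd4.

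**Figure D2:**
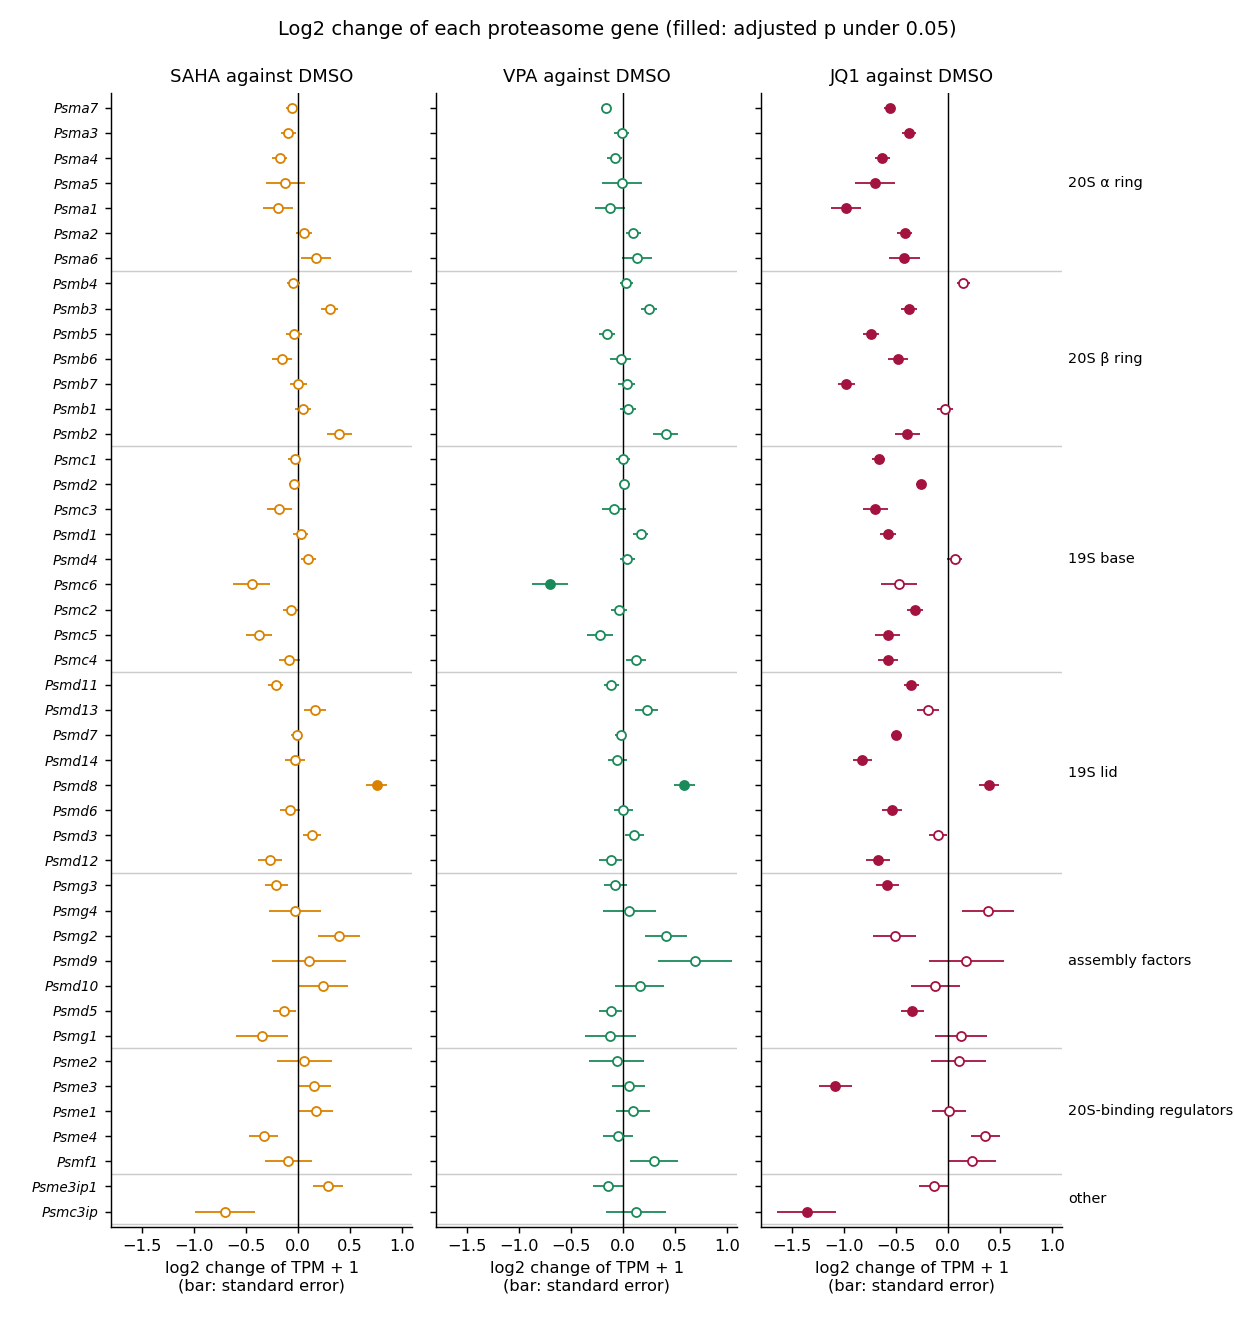
Log2 change of TPM + 1 of each tested proteasome gene with SAHA, VPA and JQ1 against DMSO, with its standard error, filled where the adjusted p is under 0.05 (Psme2b is not drawn). Psmd8 is filled at the right in all 3 panels, while 28 genes are filled at the left in the JQ1 panel.

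Measured by summed TPM, the fall was uneven between subcomplexes. Sums weigh genes by their TPM, and Psmb4, which did not fall, made up 39.37% (DMSO mean) and 50.25% (JQ1 mean) of the β-ring sum. Psmb4 averaged 940.45 TPM with JQ1 and 849.02 TPM with DMSO. The place of the β ring and the ratios that hold its sum therefore depend largely on this gene. Sums without Psmb4 are not given, so the order of the subcomplexes below holds only with it included. Median log2 changes by gene with JQ1 were −0.56 (α ring), −0.39 (β ring), −0.57 (base) and −0.43 (lid). Summed TPM of the α ring was 1469.8 ± 28.1 in JQ1 libraries and 2158 ± 33.6 in DMSO libraries (SD, n = 3 each), a ratio of 0.681, and the base was next with 2386 ± 76 and 3286 ± 69.3 (ratio 0.726). The lid summed to 1272 ± 6.96 with JQ1 and 1582 ± 30 with DMSO (ratio 0.804) and the β ring to 1870.4 ± 31.9 and 2156 ± 54.1 (ratio 0.868). Assembly factors summed to 273 ± 22.6 TPM with JQ1, against 320.1 ± 41 TPM, and the core-binding regulators to 181 ± 11.5 TPM, against 188 ± 11.7 TPM, and both of these overlapped between the groups. Median-of-ratios scaling divides every gene of a library by the same factor, so it could hardly change the order of the subcomplexes. It gave ratios of 0.738 (α ring), 0.787 (base), 0.871 (lid) and 0.940 (β ring), and the regulators turned to 1.05. The ratio of the α sum to the β sum, which no scaling of a library can change, was 0.764, 0.787 and 0.806 in JQ1 libraries, against 0.981, 1.01 and 1.01 in DMSO libraries. SAHA libraries had 0.935, 0.940 and 0.931 and VPA libraries 0.965, 0.923 and 0.859, between the JQ1 and the DMSO libraries. The ratio of core to 19S sums was 0.902, 0.909 and 0.929 in JQ1 libraries, against 0.892, 0.878 and 0.888 in DMSO libraries, a smaller difference and likewise without overlap. SAHA libraries had 0.895, 0.9002 and 0.861 and VPA libraries 0.873, 0.829 and 0.899, all below the JQ1 libraries. The core sum includes Psmb4, so this ratio of sums does not show that core genes were spared. By gene, 12 of 14 tested core genes fell with JQ1 (median log2 change −0.45) and 12 of 17 tested 19S genes (−0.50).

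**Figure D3:**
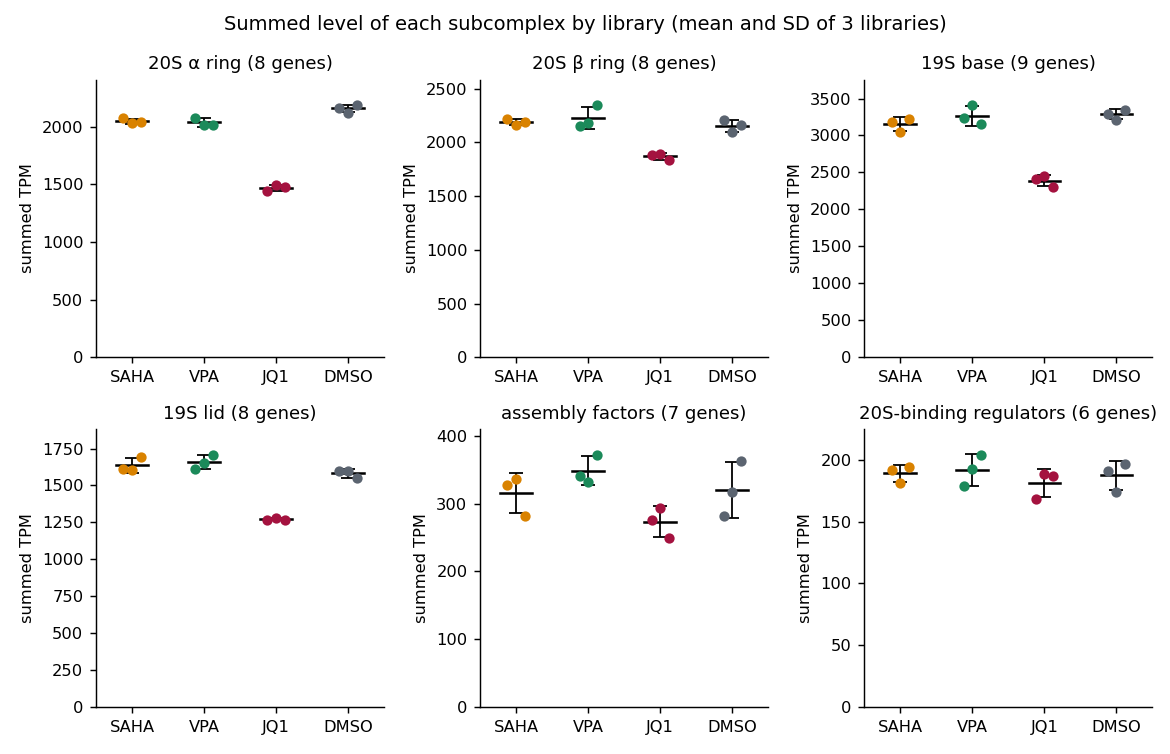
Summed TPM of the genes of each subcomplex in each library, with the mean and SD of 3 libraries per group. JQ1 libraries lie below all others in the α ring, β ring, base and lid, and among them in the regulators.

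All 7 tested α-ring genes fell with JQ1, with log2 changes between −0.99 and −0.38 and no overlap between JQ1 and DMSO libraries. Lower without overlap were 26.7% of all tested genes, and 2258 of the 5720 with a mean of at least 10 TPM. Psma1 fell most: it had 94.6, 86.99 and 103 TPM with SAHA, 93.01, 122 and 86.8 TPM with VPA and 49.7, 49.5 and 64.9 TPM with JQ1, against 98.7, 109 and 119 TPM in DMSO libraries (log2 change −0.99, SE 0.15, adjusted p = 0.00033). Its JQ1 values were all below those of the other 9 libraries. Psma7, which carried the highest TPM of any member in DMSO libraries, had 1023, 979 and 953 TPM with SAHA, 977, 891 and 885 TPM with VPA and 659.9, 717 and 713 TPM with JQ1, against 1065, 1008 and 1009.7 TPM in DMSO libraries (log2 change −0.56, SE 0.05, adjusted p = 1.08e-05). Its JQ1 libraries again stood below all others. Psma4 had 310.4, 272 and 275 TPM with SAHA, 319, 285 and 313 TPM with VPA and 207, 207 and 208 TPM with JQ1, against 332, 298 and 339.6 TPM in DMSO libraries (log2 change −0.63, SE 0.07, adjusted p = 4.58e-05), and Psma5 had 98.9, 169 and 149 TPM with SAHA, 167, 123 and 152 TPM with VPA and 99.3, 76.5 and 95.8 TPM with JQ1, against 139.8, 169 and 135 TPM in DMSO libraries (log2 change −0.71, SE 0.19, adjusted p = 0.0143). In Psma4 the 3 JQ1 libraries were nearly equal, and in Psma5 a SAHA library reached down into the JQ1 range. Psma2 had 106, 103 and 112 TPM with SAHA, 108, 111 and 112 TPM with VPA and 78.2, 71.03 and 81.5 TPM with JQ1, against 97.9, 107 and 103 TPM in DMSO libraries (log2 change −0.42, SE 0.07, adjusted p = 0.00112). Psma3 had 344, 324 and 348 TPM with SAHA, 334, 362 and 381 TPM with VPA and 283, 296 and 257 TPM with JQ1, against 347, 353 and 385 TPM in DMSO libraries (log2 change −0.38, SE 0.07, adjusted p = 0.00188). Both stood lower in every JQ1 library than in any other library. Psma6 had 96.3, 94.9 and 101 TPM with SAHA, 81.3, 119.97 and 87.6 TPM with VPA and 60.1, 75.4 and 58.5 TPM with JQ1, against 84.5, 78.5 and 96.9 TPM in DMSO libraries (log2 change −0.42, SE 0.15, adjusted p = 0.0477), and its highest JQ1 library came close to its lowest DMSO library. The call of Psma6 was lost under median-of-ratios scaling (adjusted p = 0.133), quantile normalization (0.305), without mitochondrially encoded genes and Rn18s (0.0878), with no filter (0.0772) and in a fit of the 2 groups alone (0.0545), and when any of 9 libraries was left out: SAHA replicates 1 to 3 (0.0622, 0.0611 and 0.0590), VPA replicate 3 (0.0553), JQ1 replicates 1 and 3 (0.132 and 0.145) or DMSO replicates 1 to 3 (0.0878, 0.0519 and 0.156). That of Psma5 was lost without JQ1 replicate 2 or DMSO replicate 2 (0.0577 and 0.0576). Quantile normalization also ended the calls of Psma2, Psma3 and Psma5.

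In the β ring, 5 of 7 tested genes fell with JQ1, among them all 3 that carry the constitutive active sites. Psmb7, the trypsin-like subunit, had 199.8, 200.1 and 180.2 TPM with SAHA, 193, 196 and 204 TPM with VPA and 89.9, 92.9 and 109.9 TPM with JQ1, against 195, 183 and 199.99 TPM in DMSO libraries (log2 change −0.98, SE 0.08, adjusted p = 4.71e-06). Its JQ1 mean was 0.506 of the DMSO mean, and no JQ1 library came near another group. Psmb5, the chymotrypsin-like subunit and the main target of proteasome inhibitor drugs, had 264, 284 and 303 TPM with SAHA, 233, 279 and 278 TPM with VPA and 176, 168 and 178 TPM with JQ1, against 296, 285 and 294 TPM in DMSO libraries (log2 change −0.74, SE 0.08, adjusted p = 2.42e-05). Psmb6, the caspase-like subunit, had 235, 245 and 256 TPM with SAHA, 286, 248 and 273 TPM with VPA and 196, 167 and 226 TPM with JQ1, against 262, 285 and 272 TPM in DMSO libraries (log2 change −0.48, SE 0.10, adjusted p = 0.00303). All JQ1 libraries of both lay below every other library, with the JQ1 values of Psmb6 spread wider than those of Psmb5. Psmb3 and Psmb2, structural subunits without an active site, fell as well. Psmb3 had 396, 371 and 393 TPM with SAHA, 344, 376 and 402 TPM with VPA and 227, 260.4 and 236 TPM with JQ1, against 308, 291 and 341 TPM in DMSO libraries (log2 change −0.38, SE 0.08, adjusted p = 0.0034), and Psmb2 had 57.4, 63.4 and 66.8 TPM with SAHA, 66.8, 54.1 and 69.3 TPM with VPA and 37.8, 38.5 and 31.01 TPM with JQ1, against 49.3, 44.2 and 47.8 TPM in DMSO libraries (log2 change −0.39, SE 0.12, adjusted p = 0.0274). In both of them the JQ1 libraries were the lowest and the SAHA and VPA libraries stood above DMSO. The call of Psmb2 was lost without JQ1 replicate 3 (adjusted p = 0.103), DMSO replicate 1 (0.0826) or DMSO replicate 3 (0.0702), and under all 3 rescalings. Quantile normalization also ended those of Psmb3 and Psmb6.

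The other 2 genes of the β ring did not pass. Psmb4, a structural subunit, had 865, 815 and 788 TPM with SAHA, 843, 851 and 907 TPM with VPA and 969, 981 and 871 TPM with JQ1, against 908, 816 and 823 TPM in DMSO libraries, and the JQ1 change was 0.15 (95% interval 0.01 to 0.28, adjusted p = 0.0911). It passed as higher without JQ1 replicate 3 (adjusted p = 0.0324), without DMSO replicate 1 (0.0417) and under all 3 rescalings. Psmb1 averaged 185 ± 3.28 TPM with JQ1 and 189 ± 5.24 TPM with DMSO, a change of −0.03 (95% interval −0.19 to 0.13). Within the β ring Psmb4 therefore took 51.5%, 51.8% and 47.5% of summed TPM in JQ1 libraries, against 41.2%, 38.9% and 38.1% in DMSO libraries. The share of Psmb7 was 4.78, 4.90 and 5.99% in JQ1 libraries, against 8.84, 8.74 and 9.25% in DMSO libraries. The ranges did not overlap for either share, which compares genes within 1 library.

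**Figure D4:**
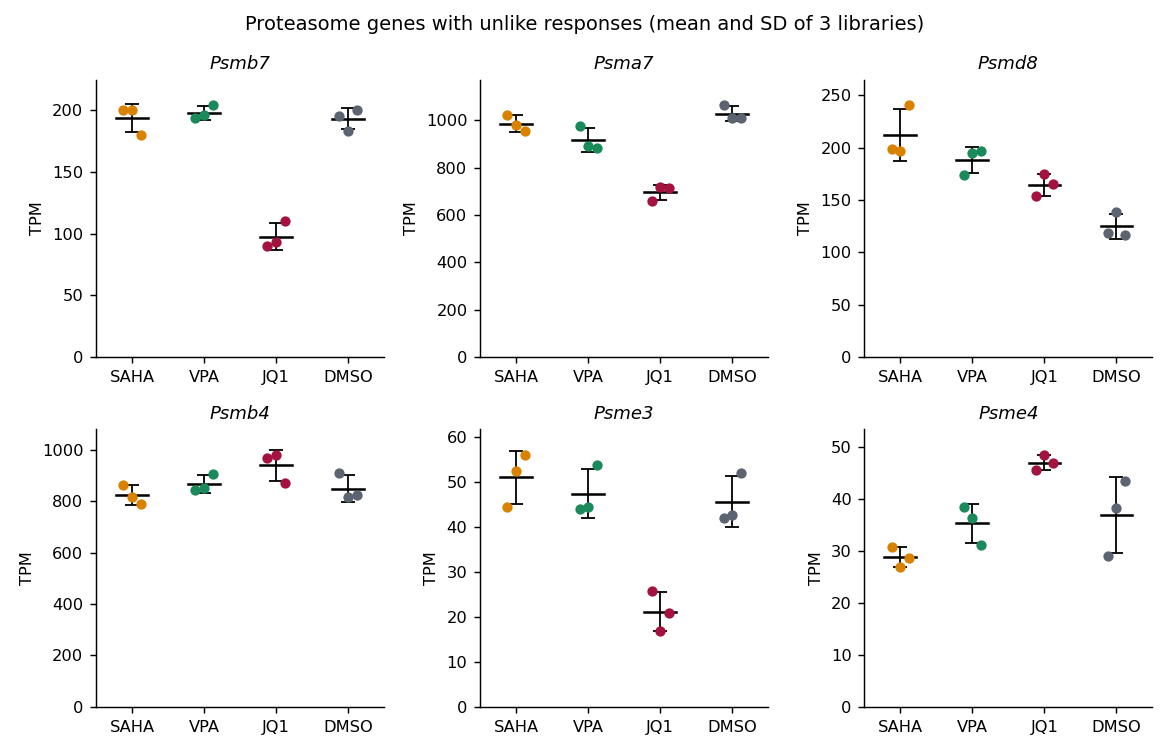
TPM of 6 members in each library, with the mean and SD of 3 libraries per group, chosen after their values were seen to show unlike patterns. Psmb7, Psma7 and Psme3 are lowest with JQ1, Psmd8 is lowest with DMSO, and Psmb4 and Psme4 are highest with JQ1.

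In the base, 7 of 9 genes fell with JQ1, and they include 5 of the 6 ATPases. Psmc1, the most abundant ATPase gene by TPM, had 878, 789.9 and 979.8 TPM with SAHA, 872, 928 and 897 TPM with VPA and 575, 566 and 555 TPM with JQ1, against 887, 918 and 891 TPM in DMSO libraries (log2 change −0.67, SE 0.07, adjusted p = 1.54e-05). Psmc3 had 456, 451 and 412 TPM with SAHA, 502, 510.3 and 402 TPM with VPA and 338, 310.2 and 273 TPM with JQ1, against 546, 424 and 530.1 TPM in DMSO libraries (log2 change −0.70, SE 0.12, adjusted p = 0.000897). Every JQ1 library of both was below every other library. Psmc4 had 59.8, 56.2 and 60.3 TPM with SAHA, 65.95, 76.3 and 62.9 TPM with VPA and 41.01, 43.9 and 39.7 TPM with JQ1, against 64.8, 65.4 and 56.8 TPM in DMSO libraries (log2 change −0.57, SE 0.10, adjusted p = 0.000852). Psmc5 had 52.9, 55.3 and 53.7 TPM with SAHA, 69.3, 49.4 and 63.6 TPM with VPA and 45.5, 48.7 and 46.03 TPM with JQ1, against 72.7, 62.9 and 75.9 TPM in DMSO libraries (log2 change −0.58, SE 0.12, adjusted p = 0.00338). Psmc2 had 109, 101 and 106 TPM with SAHA, 103, 106 and 113 TPM with VPA and 86.1, 93.7 and 86.04 TPM with JQ1, against 103, 113 and 116 TPM in DMSO libraries (log2 change −0.32, SE 0.07, adjusted p = 0.00626). Of these, Psmc2 showed the smallest change, and its call was lost under median-of-ratios scaling (adjusted p = 0.0544) and quantile normalization (0.42). Psmc6 had 118, 129.8 and 98.3 TPM with SAHA, 89.2, 85.7 and 115 TPM with VPA and 87.2, 135 and 121 TPM with JQ1, against 172, 135 and 165 TPM in DMSO libraries. All JQ1 libraries of Psmc6 lay below all DMSO libraries, but the test did not pass (log2 change −0.47, SE 0.18, adjusted p = 0.0594), except without VPA replicate 3 (0.0497), JQ1 replicate 2 (0.0339) or DMSO replicate 2 (0.0475), or with a filter at 5 TPM (0.0486).

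The base scaffolds Psmd1 and Psmd2 both fell with JQ1. Psmd1 had 489, 471 and 450.2 TPM with SAHA, 481, 579 and 503 TPM with VPA and 317, 303 and 307 TPM with JQ1, against 443, 444 and 499 TPM in DMSO libraries (log2 change −0.58, SE 0.07, adjusted p = 0.000108). Psmd2 had 705, 700.1 and 782 TPM with SAHA, 754, 784 and 725 TPM with VPA and 629.8, 637 and 605 TPM with JQ1, against 729, 769 and 744 TPM in DMSO libraries (log2 change −0.26, SE 0.05, adjusted p = 0.0026), a smaller change whose call was lost under quantile normalization (0.154). In both genes the JQ1 libraries were the lowest 3 of 12. Psmd4, a ubiquitin receptor, averaged 289.9 ± 20.7 TPM with JQ1 and 277 ± 4.63 TPM with DMSO, a change of 0.06 (95% interval −0.09 to 0.22, adjusted p = 0.52).

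In the lid, 5 of 8 genes fell with JQ1 and 1 rose. Psmd14, the deubiquitinase that removes ubiquitin chains from substrates, had 143, 119.9 and 121 TPM with SAHA, 124, 121 and 129.9 TPM with VPA and 75.8, 72.5 and 70.2 TPM with JQ1, against 116, 140.1 and 135 TPM in DMSO libraries (log2 change −0.83, SE 0.09, adjusted p = 4.54e-05). Psmd7, its structural partner, had 291, 306 and 299 TPM with SAHA, 296, 289 and 305 TPM with VPA and 202, 219.6 and 218 TPM with JQ1, against 300.1, 305 and 298 TPM in DMSO libraries (log2 change −0.50, SE 0.05, adjusted p = 2.2e-05). For both, the JQ1 libraries were clear of the other 9. Psmd12, a scaffold subunit, had 67.9, 64.9 and 85.4 TPM with SAHA, 75.3, 77.7 and 88.3 TPM with VPA and 54.2, 53.5 and 55.1 TPM with JQ1, against 95.95, 81.5 and 84.5 TPM in DMSO libraries (log2 change −0.67, SE 0.11, adjusted p = 0.000797). Psmd6 had 105, 116 and 109.7 TPM with SAHA, 115, 116 and 118 TPM with VPA and 77.7, 79.2 and 81.7 TPM with JQ1, against 121, 129.97 and 99.4 TPM in DMSO libraries (log2 change −0.54, SE 0.09, adjusted p = 0.00097). Psmd11 had 372, 357 and 313 TPM with SAHA, 345, 370.3 and 402 TPM with VPA and 311, 309.9 and 321 TPM with JQ1, against 398, 417 and 392 TPM in DMSO libraries (log2 change −0.35, SE 0.07, adjusted p = 0.00319). For Psmd12 and Psmd6 the JQ1 libraries were again the lowest, while a SAHA value of Psmd11 fell inside its JQ1 range, and quantile normalization ended that call (0.46). Psmd13 had 316, 325 and 396 TPM with SAHA, 373, 359 and 344 TPM with VPA and 289, 276 and 241 TPM with JQ1, against 339, 269 and 316 TPM in DMSO libraries, with JQ1 and DMSO overlapping (log2 change −0.19, SE 0.11, adjusted p = 0.198). Psmd3 averaged 105 ± 10.4 TPM with JQ1 and 112 ± 5.1 TPM with DMSO, a change of −0.10 (95% interval −0.29 to 0.09, adjusted p = 0.43).

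In the reported fit, Psmd8 was the only 26S gene called higher with a drug against DMSO. Under some alternatives Psmb4 and Psmd4 with JQ1, and Psmb3 with SAHA, also passed as higher. Psmd8 encodes a lid subunit whose yeast counterpart is the last to join the lid. It had 198, 197 and 241 TPM with SAHA, 174, 195 and 196 TPM with VPA and 153, 175 and 165 TPM with JQ1, against 118, 139 and 117 TPM in DMSO libraries. The highest DMSO library was below the lowest library of each drug. The log2 change was 0.76 with SAHA (SE 0.10, adjusted p = 0.00148), 0.59 with VPA (SE 0.10, adjusted p = 0.00855) and 0.40 with JQ1 (SE 0.10, adjusted p = 0.00989), 3 comparisons that share the DMSO libraries. All 3 calls were kept under every alternative tried, including each left-out library. Psmd8 took 12.3, 12.2 and 14.2% of summed lid TPM in SAHA libraries, 10.8, 11.8 and 11.5% in VPA libraries and 12.1, 13.7 and 13.01% in JQ1 libraries, against 7.40, 8.69 and 7.56% in DMSO libraries. No other annotated gene overlaps its locus in RefSeq.

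Of 7 assembly factors, 2 fell with JQ1 (28.6%), between the 21.0% of all tested genes and the 34.2% of those of at least 10 TPM. Psmg3, part of a chaperone pair that helps to build the α ring, had 111, 110.1 and 123 TPM with SAHA, 117, 121 and 142 TPM with VPA and 77.2, 102 and 86.9 TPM with JQ1, against 124, 134 and 140.2 TPM in DMSO libraries (log2 change −0.59, SE 0.11, adjusted p = 0.00172). Psmd5, a chaperone of the base, had 30.3, 25.3 and 26.03 TPM with SAHA, 27.3, 24.8 and 30.4 TPM with VPA and 23.2, 22.9 and 23.7 TPM with JQ1, against 28.6, 29.9 and 30.9 TPM in DMSO libraries (log2 change −0.34, SE 0.11, adjusted p = 0.032). Each was lower in every JQ1 library than in any DMSO library, but the Psmd5 call was lost without any 1 of the JQ1 replicates 1 to 3 (adjusted p = 0.0725, 0.0763 and 0.0621) or the DMSO replicates 1 to 3 (0.0523, 0.0750 and 0.0922), and under all 3 rescalings. Psmg2, another chaperone of the α ring, had 55.3, 55.5 and 32.7 TPM with SAHA, 43.5, 51.2 and 46.97 TPM with VPA and 20.4, 29.02 and 24.1 TPM with JQ1, against 31.8, 40.9 and 33.2 TPM in DMSO libraries. Its JQ1 libraries lay below all 9 others, yet against DMSO the test did not pass (log2 change −0.51, SE 0.20, adjusted p = 0.0732) in the reported fit. It passed without SAHA replicate 3 (0.0192). The other 4 assembly genes, Psmg1, Psmg4 and the base chaperones Psmd9 and Psmd10, overlapped between JQ1 and DMSO and had log2 changes between −0.12 and 0.39. Psmg1, the lowest of the 7, averaged 17.8 ± 7.3 TPM with JQ1 and 15.5 ± 1.53 TPM with DMSO. Without DMSO replicate 3, Psmg4 passed as higher (0.0290).

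Of the 6 tested regulators that bind the core, 1 fell with JQ1, where 21.0% of all tested genes fell. Psme3, the member that fell, forms a nuclear cap that works without ATP, and it had 44.5, 52.6 and 56.1 TPM with SAHA, 44.05, 44.5 and 53.8 TPM with VPA and 25.7, 16.96 and 20.9 TPM with JQ1, against 42.1, 42.8 and 52.1 TPM in DMSO libraries. Its JQ1 values were lower than those of all 9 other libraries (log2 change −1.09, SE 0.16, adjusted p = 0.000318), and the call was kept in every alternative. Psme4, another nuclear cap, had 30.8, 26.9 and 28.6 TPM with SAHA, 38.4, 36.4 and 31.2 TPM with VPA and 45.6, 48.5 and 46.8 TPM with JQ1, against 28.99, 38.2 and 43.4 TPM in DMSO libraries. JQ1 libraries of Psme4 were above all others, but against DMSO the change did not pass (log2 change 0.36, SE 0.14, adjusted p = 0.0728). It passed without DMSO replicate 3 (adjusted p = 0.0272) and under all 3 rescalings (0.016 to 0.0398). The ratio of Psme4 to Psme3 within a library was 1.77, 2.86 and 2.24 with JQ1, against 0.688, 0.893 and 0.832 with DMSO. SAHA libraries had 0.691, 0.512 and 0.510 and VPA libraries 0.872, 0.818 and 0.579, all below the JQ1 libraries. The locus of Psme4 overlaps Erlec1, and the use of strand in counting is not given in the sources used here. The same limit holds for the other called members whose loci overlap an annotated gene in RefSeq, namely Psma3, Psma4, Psma6, Psmb5, Psmb7, Psmc5, Psmd1, Psmd13, Psme3ip1 and Psmc3ip.

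The interferon-inducible caps Psme1 and Psme2, and the core-binding protein Psmf1, did not pass with JQ1. Psme1 averaged 41.6 ± 5.18 TPM with JQ1 and 41.2 ± 4.53 TPM with DMSO (95% interval of the log2 change −0.35 to 0.37), Psme2 50.5 ± 15.2 and 47.4 ± 16.3 TPM (−0.48 to 0.69), and Psmf1 19.2 ± 3.61 and 16.3 ± 4.21 TPM (−0.27 to 0.74). Psme2b had 0, 2.61 and 3.22 TPM in JQ1 libraries and was listed at 0 in all DMSO libraries, so no fold is given. The last 2 members share the naming pattern without being proteasome parts. Psmc3ip, a factor of meiotic recombination whose locus overlaps Mlx, had 8.25, 9.20 and 3.92 TPM with SAHA, 12.3, 15.2 and 11 TPM with VPA and 4.77, 4.63 and 2.62 TPM with JQ1, against 9.71, 12.1 and 13.2 TPM in DMSO libraries and fell with JQ1 (log2 change −1.36, SE 0.29, adjusted p = 0.00364). Psme3ip1, a binding partner of the Psme3 protein, had 44.8, 46.4 and 55.8 TPM with SAHA, 34.1, 32.5 and 41.7 TPM with VPA and 34.2, 39.2 and 35.2 TPM with JQ1, against 33.9, 47.4 and 38.8 TPM in DMSO libraries, with JQ1 and DMSO overlapping (adjusted p = 0.527).

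With SAHA, Psmd8 was the only member past the threshold against DMSO, where 3.09% of all tested genes rose and 2.1% fell. The summed TPM of the members was 9587 ± 148 with SAHA and 9742 ± 143 with DMSO (SD, n = 3 each), a ratio of 0.984, and the median log2 change of the members was −0.03, beside 0.01 over all tested genes. An unadjusted p under 0.05 was found for 10 of the 46 tested members, beside 2513 of the 12836 tested genes, a similar share. Closest to the threshold was Psmb3, whose SAHA libraries stood above all DMSO libraries (log2 change 0.30, adjusted p = 0.0509). It passed without VPA replicate 1 (0.0492), VPA replicate 3 (0.0488), JQ1 replicate 2 (0.0472) or DMSO replicate 3 (0.0439), which made the count 2. Without VPA replicate 2, Psmc5 passed as lower (0.0497). Psmb2 likewise had no overlap between SAHA and DMSO (log2 change 0.40, SE 0.12, adjusted p = 0.089).

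With VPA, Psmd8 passed as higher and Psmc6 as lower, where 2.95% of all tested genes rose and 1.32% fell. The ATPase gene Psmc6 averaged 96.7 ± 16 TPM with VPA and 157 ± 19.4 TPM with DMSO (SD, n = 3 each, log2 change −0.70, SE 0.18, adjusted p = 0.0497). Its highest VPA library was below its lowest DMSO library. That call was lost without SAHA replicates 1 to 3 (adjusted p = 0.0700, 0.0593 and 0.0508), VPA replicates 1 and 2 (0.141 and 0.149), JQ1 replicate 3 (0.0649) or DMSO replicates 1 to 3 (0.152, 0.0626 and 0.138), so the count fell to 1. Summed TPM of the members was 9779 ± 115 with VPA, a ratio of 1.00 to DMSO, and their median log2 change was 0.01, beside 0.06 over all tested genes. Psmb2 (log2 change 0.41, adjusted p = 0.0884) and Psmb3 (0.25 and 0.107) were above DMSO in every VPA library without passing. Under median-of-ratios scaling Psma7 also passed as lower (0.0257), which made the count 3, and the split of all tested genes turned to 2.33% lower and 2.1% higher.

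Between the 2 histone deacetylase inhibitors, limma called no member, where 0.265% of all tested genes were higher with SAHA and 0.187% lower (0.584% and 0.164% under median-of-ratios scaling). Unadjusted p was under 0.05 for 2 of the 46 tested members, Psme3ip1 (log2 change 0.43) and Psmc3ip (−0.82), beside 1464 of the 12836 tested genes. No other tool was run. The dose and duration of SAHA and VPA differ. For Psmd8 the SAHA over VPA change was 0.17 (95% interval −0.05 to 0.39), and for Psmc6 it was 0.25 (−0.13 to 0.64).

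JQ1 and VPA were both given for 36 h. With JQ1, 29 of 46 members were lower and 1 higher than with VPA, where 22.9% of all tested genes were lower and 10.3% higher. The median log2 change of the members was −0.44, beside −0.14 over all tested genes. Median-of-ratios scaling moved the median of all tested genes to 0.00 and that of the members to −0.25, with 20 lower and 3 higher, beside 17.6% of all tested genes lower and 15% higher. Psmb7 averaged 97.6 TPM with JQ1 and 198 TPM with VPA (log2 change −1.02, SE 0.08, adjusted p = 3.65e-06). Psmg2 passed here (log2 change −0.93, SE 0.20, adjusted p = 0.0044), as did Psmd13 (log2 change −0.42, SE 0.11, adjusted p = 0.0109). Psmd8 did not pass (log2 change −0.19, SE 0.10, adjusted p = 0.163), and neither did Psmb4 (log2 change 0.12, SE 0.06, adjusted p = 0.178). The member that was higher with JQ1 was Psme4 (log2 change 0.41, SE 0.14, adjusted p = 0.0465), a call lost without SAHA replicates 1 to 3, VPA replicates 1 to 3, JQ1 replicates 1 to 3 or DMSO replicate 2 (0.0519 to 0.153). The call of Psmc5 was lost without SAHA replicates 1 to 3, VPA replicates 1 and 3, JQ1 replicates 1 to 3 or DMSO replicate 1 (0.0520 to 0.151). Psmd11 lost its call without VPA replicates 2 and 3 (0.0579 and 0.0970) or JQ1 replicates 1 and 2 (0.0658 and 0.0684). Psma5 lost it without VPA replicate 1 (0.0605) or JQ1 replicate 2 (0.0626), Psma6 without JQ1 replicate 3 (0.0508) and Psmc2 without VPA replicate 3 (0.0503).

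SAHA libraries had 28 of 46 members higher and 2 lower than JQ1 libraries, where 21.3% of all tested genes were higher and 11.9% lower, and the exposure times differ. The median log2 change of the members was 0.37, beside 0.09 over all tested genes. Median-of-ratios scaling gave 18 higher and 2 lower members, beside 17.8% and 15.6% of all tested genes. Quantile normalization gave 15 higher and 3 lower, beside 17.2% and 16.0%. The 2 lower members were Psme4 (log2 change −0.69, SE 0.14, adjusted p = 0.00298) and Psmb4 (log2 change −0.19, SE 0.06, adjusted p = 0.0334). Psmd8 was higher with SAHA than with JQ1 (log2 change 0.36, SE 0.10, adjusted p = 0.016), a call lost under median-of-ratios scaling (0.101) and quantile normalization (0.367). Psme3ip1 (log2 change 0.42, SE 0.15, adjusted p = 0.0434) and Psmb7 (log2 change 0.98, SE 0.08, adjusted p = 4.62e-06) were higher with SAHA as well. In this comparison the calls of 9 members were lost without at least 1 library, namely Psma5, Psmb4, Psmb6, Psmc2, Psmd8, Psmd12, Psmd13, Psmg3 and Psme3ip1. Leaving out SAHA replicate 3 ended the calls of all 9 (0.0573 to 0.149). Of these genes, Psmc2 and Psme3ip1 lost theirs without SAHA replicate 1 (0.0767 and 0.0517), and Psma5, Psmb4, Psmb6 and Psme3ip1 without SAHA replicate 2 (0.0585 to 0.133). JQ1 replicate 1 did so for Psmg3, Psmc2, Psmb4, Psmb6, Psmd8 and Psme3ip1 (0.0547 to 0.117), and JQ1 replicate 2 for Psma5, Psmb4, Psmb6 and Psme3ip1 (0.0524 to 0.124). JQ1 replicate 3 did so for Psma5, Psmg3, Psmc2, Psmd13 and Psme3ip1 (0.0572 to 0.104), and VPA replicate 1 (0.0542) and DMSO replicate 3 (0.0568) for Psme3ip1.

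A list of 28 genes that work with the proteasome was read beside the members, and 27 of them were in the matrix and tested. With JQ1, 5 of these rose and 7 fell, shares near those of all tested genes (12.9% rose and 21.0% fell). The list holds targeting factors, chaperones and regulators, and its median log2 change was −0.14. Pomp, the maturation factor of the core, had 344, 317 and 300.2 TPM with SAHA, 368, 326 and 367 TPM with VPA and 259.8, 257 and 265 TPM with JQ1, against 362, 366 and 379 TPM in DMSO libraries (log2 change −0.50, SE 0.06, adjusted p = 0.000114). Adrm1, a ubiquitin receptor of the base, had 132, 141 and 125 TPM with SAHA, 140.3, 161 and 129.9 TPM with VPA and 98.8, 108 and 124 TPM with JQ1, against 151, 153 and 154 TPM in DMSO libraries (log2 change −0.47, SE 0.10, adjusted p = 0.00347). Uchl5, a deubiquitinase that Adrm1 recruits, had 82.6, 81.5 and 65.3 TPM with SAHA, 67.9, 79.8 and 62.9 TPM with VPA and 24.6, 33.1 and 33.1 TPM with JQ1, against 78.6, 66.5 and 69.05 TPM in DMSO libraries (log2 change −1.22, SE 0.15, adjusted p = 6.75e-05). In all 3 genes every JQ1 library was below every DMSO library, and quantile normalization ended the call of Adrm1 (0.0968). Sem1, a small lid subunit outside the naming pattern, averaged 120.5 ± 4.75 TPM with JQ1 and 115 ± 2.96 TPM with DMSO and did not pass (log2 change 0.07, SE 0.07, adjusted p = 0.464), except as higher under quantile normalization (0.00772).

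Shuttle and adaptor genes moved both ways with JQ1. Rad23b, which carries ubiquitinated proteins to the proteasome, averaged 50.8 ± 4.8 TPM with JQ1 and 80.8 ± 5.52 TPM with DMSO (log2 change −0.66, SE 0.09, adjusted p = 0.000264), and the shuttle Ubqln4 1.58 ± 0.727 and 7.61 ± 1.38 TPM (log2 change −1.77, SE 0.25, adjusted p = 0.000248). The related Ubqln2 rose (62.1 ± 7.75 and 42.4 ± 1.53 TPM, log2 change 0.53, SE 0.11, adjusted p = 0.00243), as did Zfand5, which binds and activates the 26S proteasome (53.9 ± 5.53 and 29.4 ± 1.46 TPM, log2 change 0.85, SE 0.11, adjusted p = 0.000152). Ecpas, a 26S-binding scaffold, fell (log2 change −0.67, SE 0.23, adjusted p = 0.0394), and so did the thioredoxin-like Txnl1 (log2 change −0.42, SE 0.13, adjusted p = 0.0279). Both of these calls depended on single libraries: Ecpas lost its call without VPA replicate 1 (0.0518), JQ1 replicates 1 to 3 (0.0913, 0.0921 and 0.0699) or DMSO replicates 1 and 2 (0.0999 and 0.129), and Txnl1 without JQ1 replicates 1 and 3 (0.0884 and 0.0584) or DMSO replicates 1 and 2 (0.0957 and 0.0530). Both calls were also lost under all 3 rescalings (0.0575 to 0.0796 for Ecpas and 0.0507 to 0.2 for Txnl1).

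Ubb, which encodes ubiquitin, rose with JQ1. It had 188, 211 and 174 TPM with SAHA, 183, 182 and 195 TPM with VPA and 402, 374 and 412 TPM with JQ1, against 189.5, 213 and 196 TPM in DMSO libraries (log2 change 0.99, SE 0.08, adjusted p = 3.01e-06). Its JQ1 libraries were far above the other 9. Nfe2l1 had 69.5, 66.98 and 63.1 TPM with SAHA, 64.1, 80.5 and 41.7 TPM with VPA and 92.7, 103 and 101 TPM with JQ1, against 62.6, 60.6 and 71.2 TPM in DMSO libraries (log2 change 0.60, SE 0.18, adjusted p = 0.0259), with every JQ1 library above the other 9. Ngly1, the glycanase that processes the Nfe2l1 protein, averaged 8.08 ± 2.81 TPM with JQ1 and 2.77 ± 1.46 TPM with DMSO (log2 change 1.29, SE 0.42, adjusted p = 0.0345). The Nfe2l1 call was lost without JQ1 replicates 2 and 3 (0.0727 and 0.0654) or DMSO replicates 1 and 2 (0.0690 and 0.0783), and that of Ngly1 without JQ1 replicates 1 and 3 (0.119 and 0.0825) or DMSO replicates 1 and 2 (0.0742 and 0.126). Nfe2l2, a relative of Nfe2l1 that responds to oxidants, averaged 35.4 ± 3.32 TPM with JQ1 and 33.5 ± 4.2 TPM with DMSO and did not pass (log2 change 0.08, SE 0.12, adjusted p = 0.671).

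**Figure D5:**
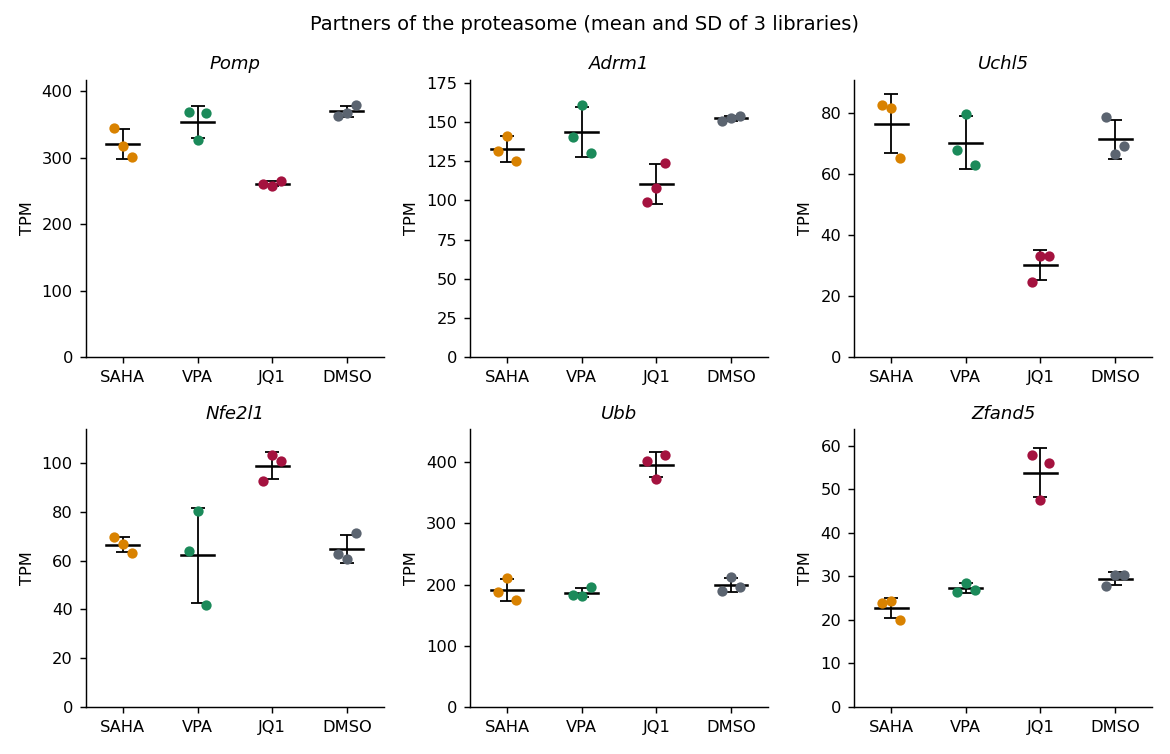
TPM of 6 partner genes in each library, with the mean and SD of 3 libraries per group. With JQ1, Pomp, Adrm1 and Uchl5 are below DMSO, and Nfe2l1, Ubb and Zfand5 are above it.

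With SAHA and with VPA, 2 of the 27 partners passed against DMSO, 1 higher and 1 lower in each case, which is close to the shares of all tested genes (3.09% higher and 2.1% lower with SAHA, 2.95% and 1.32% with VPA). Vcp, the ATPase that extracts ubiquitinated proteins, averaged 148 ± 3.92 TPM with SAHA and 154 ± 10.1 TPM with VPA, against 202 ± 6.77 TPM with DMSO, and fell with both (log2 change −0.44, adjusted p = 0.00235 and −0.40, adjusted p = 0.0064), the VPA call being lost in a fit of the 2 groups alone (0.051). Ubqln2 rose with both (0.65, adjusted p = 0.00547 for SAHA and 0.48, adjusted p = 0.0301 for VPA). Its VPA call was lost without any 1 of VPA replicates 1 to 3 or DMSO replicates 1 to 3 (0.0531 to 0.105). Median-of-ratios scaling also ended the VPA call of Ubqln2 (0.0577). Pomp, Adrm1, Nfe2l1, Nfe2l2 and Sem1 did not pass with either drug, with log2 changes between −0.21 (Pomp with SAHA) and 0.23 (Nfe2l2 with SAHA).

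Psmb10, the inducible counterpart of Psmb7 and not a member here, averaged 58.05 ± 13.8 TPM with SAHA, 67.2 ± 11 TPM with VPA and 6.66 ± 2.14 TPM with JQ1, against 113 ± 13.1 TPM with DMSO (SD, n = 3 each), and fell with JQ1 (log2 change −3.92, SE 0.22, adjusted p = 2.86e-07). Its change with SAHA was −0.97 (adjusted p = 0.0337), a call lost without SAHA replicate 1 (0.0635) or 3 (0.103) or DMSO replicates 1 to 3 (0.0788, 0.113 and 0.0718). With VPA it was −0.74 and did not pass (adjusted p = 0.0985). Psmb8, the inducible counterpart of Psmb5, was listed at 0 in all 12 libraries. Psmb9, the inducible counterpart of Psmb6, had 5.01, 6.93 and 10.52 TPM with SAHA, 10.96, 3.62 and 7.55 TPM with VPA and 2.55, 1.29 and 2.64 TPM with JQ1, against 0, 4.08 and 3.70 TPM in DMSO libraries. Its SAHA libraries were above all DMSO libraries, the other drugs overlapped with DMSO, and no change passed: the log2 change was 1.51 with SAHA (adjusted p = 0.178), 1.44 with VPA (0.216) and 0.10 with JQ1 (0.92).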

How the data were processed

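Transcript 3′ ends of ISOS-1 cells were sequenced in 12 libraries (QuantSeq 3′ FWD kit, per the labels' protocols). The TPM values were deposited by the authors; per the submitters' processing notes, bcl2fastq 2.17, STAR, RSEM, edgeR and mm39 were used, with no role stated for each. All sample columns of the main matrix were used (0 left out). The sheets per drug repeat its values and were not used, and in that of SAHA the identifiers do not stand on the lines of the matrix. Depth is unknown.

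The filter kept genes reaching 1 TPM in 3 or more libraries. A model of 4 group means on log2(TPM + 1), with 8 residual degrees of freedom, was fitted over all tested genes (limma 3.58.1 in R 4.3.3, eBayes with a trend) and tested on simulated data. The log2 changes are on that scale and understate those of low genes. P-values were two-sided and adjusted by Benjamini and Hochberg over all tested genes, and members past 0.05 are written as rose or fell. Lists are given by counts and medians, and 1 gene of the partner list is not reported here. Alternatives were other pseudocounts and filters, median-of-ratios scaling, quantile normalization, TPM without mitochondrially encoded genes and Rn18s (these last 3 are called rescalings), fits of the 2 groups alone, robust eBayes, a replicate block and each library left out. Figures were drawn with matplotlib 3.10.9 in Python 3.11.15.

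Named are all members called in any comparison, the highest and lowest of each subcomplex, members under 1 TPM throughout, the 3 constitutive catalytic subunits, partners called against DMSO, and Nfe2l1, Nfe2l2, Pomp, Adrm1 and Sem1. The other named genes, the ratios within a library and the shown promoters were picked with their values known. Members and lists were chosen with earlier results of these data known.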

Additional observations from a re-analysis of the deposited data

How the results depend on the processing

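With JQ1 against DMSO 29 members were called, of which 18 were kept in every alternative and 25 whichever library was left out. The same figures were 30, 19 and 24 for JQ1 against VPA, and 30, 16 and 21 for SAHA against JQ1. In SAHA against JQ1, quantile normalization left 18 called members, beside 17.2% of all tested genes higher and 16.0% lower. With SAHA against DMSO the count of 1 became 2 with a filter at 5 TPM, quantile normalization, mitochondrially encoded genes and Rn18s left out, or robust eBayes, each time by adding Psmb3, and ran from 1 to 2 over the left-out libraries. With VPA against DMSO the count of 2 became 1 with log2(TPM + 0.1), no filter, quantile normalization, the 2 groups alone or the replicate number as a block, became 3 under median-of-ratios scaling, and ran from 1 to 2 over the left-out libraries. The cause was not tested. The replicate block gave 29 called members for JQ1 against DMSO, 29 for JQ1 against VPA and 29 for SAHA against JQ1; it added Psmg2 with JQ1 against DMSO (adjusted p = 0.0481) and ended the calls of Psma6 in the same comparison (0.0552), Psme4 in JQ1 against VPA (0.0756), Psma5 in SAHA against JQ1 (0.0605) and Psmc6 in VPA against DMSO (0.0880) and, among genes outside the members, of Psmb10 with SAHA (0.0686) and Ubqln2 with VPA (0.0549). Correlations of same-numbered deviations ran from −0.045 to 0.079 over 18 pairs, all under 0.1. Those of differently numbered libraries ran from −0.067 to 0.056 over 36 pairs. Whether same-numbered libraries were handled together cannot be told from this, because a weak shared effect could be hidden by variation between libraries.

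Over all tested genes, 666 were called with SAHA against DMSO and 369 in a fit of the 2 groups alone, and 365 to 401 when a SAHA or DMSO library was left out. With VPA against DMSO the count was 548, against 243 for the 2 groups alone and 294 to 317 when a VPA or DMSO library was left out. SAHA against VPA had 58 called genes, against 19 for the 2 groups alone, 24 with the replicate block, 96 under median-of-ratios scaling and 15 to 38 when a SAHA or VPA library was left out. These alternatives hold fewer samples or degrees of freedom, apart from the scaling, whose cause was not tested.

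The change of Psmc2, SAHA against JQ1, turned to −0.0131 under quantile normalization. Of changes that did not pass in any case, Sem1, VPA against DMSO, turned to −0.0112 under median-of-ratios scaling. Over the left-out libraries the change ran from −0.0061 to 0.1088 for Nfe2l1, SAHA against DMSO, from −0.3163 to 0.1497 for Nfe2l1, VPA against DMSO, and from −0.0471 to 0.0127 for Sem1, SAHA against DMSO. TPM keeps no depth, so counting error is unknown, and changes of Psme2b and other genes near 1 TPM were the least certain.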
